A study of Mus musculus with 8 samples.

Results

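Egln3, Ldha, Slc2a1, Pdk1 and Ddit4 are 5 genes of oxygen sensing and sugar metabolism that were lower in stripped mouse skin without corneodesmosin than in stripped control skin. They were taken by symbol from the authors' deposited table of 5460 probe sets, out of 33793 on the array, and each had 1 probe set there. Probe sets outside that table carry no symbol here, so others for these genes may exist. The table holds only probe sets past an adjusted p of 0.05 and a log2 change of 0.5 in size, and these genes were chosen from it because they were lower, so their differences between the genotypes are given below as a description with no test. RNA came from whole dorsal skin of embryos at stage E18.5. KO embryos (Cdsnep-/-, 4 embryos) had the genotype KRT14-Cre(tg/0)/Cdsnfl/fl, and WT embryos (4 embryos) the genotype KRT14-Cre(tg/0)/Cdsnwt/wt, so that both carried the Cre transgene, whose keratin 14 promoter acts in basal keratinocytes. Both were on the background labelled C57B/6J, were taken by caesarean because the KO phenotype is lethal at birth, and had their skin stripped with adhesive disks and kept on culture medium for 4 h. Each array came from 1 embryo, and litters and sexes are not given in the labels, so errors measure the spread between these embryos.

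Cells meet a shortage of oxygen through the hypoxia-inducible factors (HIFs), transcription factors whose alpha subunits are hydroxylated and destroyed while oxygen is present. When HIF accumulates it switches on glucose uptake, glycolysis and lactate production, and restrains the entry of pyruvate into mitochondria. Epidermis has no blood vessels of its own and is known to rely heavily on glycolysis. Egln3 encodes a prolyl hydroxylase (PHD3) that marks HIF alpha subunits and is itself a HIF target. Slc2a1 encodes the glucose transporter GLUT1, Ldha the lactate dehydrogenase subunit that favours lactate, and Pdk1 a kinase that switches off pyruvate dehydrogenase. Ddit4 (REDD1) encodes an inhibitor of the growth kinase complex mTORC1 and is induced by hypoxia, glucocorticoids and ATF4, the effector of the integrated stress response.

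HIF binds a short core, ACGTG or GCGTG, and the 250 bases before the first start that the RefSeq promoter table (GRCm38.p6) lists for each gene are shown because the 5 genes were lower together and because this core is the element they are known to share. Both strands were searched, and capitals mark every match, a match on the other strand reading CACGT or CACGC. Where 2 matches overlap they form CACGTG, the E-box bound by other factors such as MYC.
Egln3, chr12:54203875-54204124, minus strand: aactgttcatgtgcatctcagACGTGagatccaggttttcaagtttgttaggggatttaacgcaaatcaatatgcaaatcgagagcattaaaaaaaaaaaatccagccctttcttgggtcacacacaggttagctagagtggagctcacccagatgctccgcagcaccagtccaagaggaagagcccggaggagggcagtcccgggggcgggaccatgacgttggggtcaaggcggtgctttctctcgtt
Slc2a1, chr4:119108495-119108744, plus strand: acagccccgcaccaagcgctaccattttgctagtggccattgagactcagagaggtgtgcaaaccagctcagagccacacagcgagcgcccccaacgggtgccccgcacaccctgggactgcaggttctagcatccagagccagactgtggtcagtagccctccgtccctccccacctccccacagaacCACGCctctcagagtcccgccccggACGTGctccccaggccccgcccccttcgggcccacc
Ldha, chr7:46845554-46845803, plus strand: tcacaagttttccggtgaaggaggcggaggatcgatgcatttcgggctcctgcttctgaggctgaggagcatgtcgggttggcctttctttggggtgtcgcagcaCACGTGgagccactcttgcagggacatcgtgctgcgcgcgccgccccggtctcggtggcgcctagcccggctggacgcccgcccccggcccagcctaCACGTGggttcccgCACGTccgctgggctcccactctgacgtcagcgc
Pdk1, chr2:71872974-71873223, plus strand: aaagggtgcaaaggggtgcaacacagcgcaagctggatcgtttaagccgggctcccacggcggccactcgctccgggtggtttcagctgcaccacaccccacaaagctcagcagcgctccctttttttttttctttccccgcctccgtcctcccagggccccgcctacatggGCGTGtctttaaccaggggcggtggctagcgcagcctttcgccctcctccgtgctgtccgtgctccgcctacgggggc
Ddit4, chr10:59951771-59952020, minus strand: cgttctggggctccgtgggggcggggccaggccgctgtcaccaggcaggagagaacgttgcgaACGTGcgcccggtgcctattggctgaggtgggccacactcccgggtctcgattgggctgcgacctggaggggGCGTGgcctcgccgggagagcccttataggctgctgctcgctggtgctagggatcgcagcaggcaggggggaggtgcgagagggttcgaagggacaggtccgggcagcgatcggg
All 5 windows held at least 1 core. Egln3 had ACGTG with its first base 229 bases before the start. Slc2a1 had CACGC 61 bases and ACGTG 36 bases before it. Ldha had an E-box whose overlapping matches began 145 and 144 bases before the start, a second that began 48 and 47 bases before it, and CACGT 34 bases before it. Pdk1 had GCGTG at 78 bases, and Ddit4 had ACGTG at 187 and GCGTG at 115 bases before the start.

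A core of this kind is common. It was present in 38.6% of the 27025 first windows of all genes in the table, and in 52.9% of the 14932 windows at least as rich in G and C as the poorest of the 5 (50.8% for Egln3, against 70.0% for Ddit4, the richest). Those 14932 windows had a median G and C content of 59.6%, below the 66.4% of the 5, so they are not fully matched. Among named genes of the authors' deposited table, 36.7% of the 657 windows matched for genes lower in KO skin held it, and 39.6% of the 2181 matched for genes higher in KO skin. Ldha and Pdk1 each have a second start in the table, before which Ldha had 1 core and Pdk1 had 0. The whole RefSeq gene record begins further upstream for both, at position 46842274 of chromosome 7 for Ldha and 71873215 of chromosome 2 for Pdk1, so the Ldha window lies inside that record and the Pdk1 window reaches into it. These are matches of letters, and binding was not measured.

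The targeted gene was lower as its label states. Cdsn, which encodes corneodesmosin, had log2 intensities of 8.09, 8.51, 8.0 and 8.91 on the KO arrays and 11.76, 11.82, 11.69 and 12.10 on the WT arrays. Median log2 intensities of the arrays were slightly higher in KO (4.81 to 4.88) than in WT skin (4.70 to 4.80). Pairs of arrays of one genotype correlated at 0.979 to 0.989 over probe sets, and pairs of unlike genotype at 0.967 to 0.98; probe sets are no independent replicates. KO replicate 3 stood apart from the other KO arrays on the first principal component, toward the WT side, and WT replicate 1 from all arrays on the second. Without these 2 arrays the log2 differences of the 5 genes were −0.84 for Egln3, −0.62 for Pdk1, −0.67 for Ldha, −0.52 for Slc2a1 and −0.86 for Ddit4.

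Egln3, the oxygen sensor of the set, averaged 58.9% of the WT level. Its log2 intensities were 10.11, 9.95, 10.07 and 9.62 on the KO arrays, against 10.59, 10.79, 10.59 and 10.83 on the WT arrays. The highest KO value lay 0.48 below the lowest WT value. The means were 9.94 ± 0.22 in KO and 10.70 ± 0.13 in WT skin (SD, n = 4 each), a log2 difference of −0.76 ± 0.14 (SE of the limma fit across all probe sets).

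Slc2a1, which brings glucose into the cell, had log2 intensities of 10.68, 10.48, 10.53 and 10.91 on the KO arrays, against 11.13, 11.07, 11.32 and 11.25 on the WT arrays. All KO values were below all WT values, but KO replicate 4 came within 0.16 of WT replicate 2. The means of 10.65 ± 0.19 in KO and 11.19 ± 0.11 in WT skin (SD, n = 4 each) put the KO level at 68.6% of the WT level, a log2 difference of −0.54 ± 0.13 (SE).

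Ldha, which turns pyruvate into lactate, read 6.03, 6.49, 6.38 and 6.27 on the KO arrays in log2 intensity, against 6.92, 6.94, 6.94 and 6.94 on the WT arrays. The groups were 0.43 apart, and the WT embryos were almost identical while the KO embryos were spread out. The means were 6.29 ± 0.19 in KO and 6.93 ± 0.01 in WT skin (SD, n = 4 each), a log2 difference of −0.64 ± 0.12 (SE), which puts KO skin at 64.2% of WT. Only 18 of the 33793 probe sets had a WT spread as small as or smaller than that of Ldha, whose SD was 0.193 in KO and 0.011 in WT skin.

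Pdk1, which keeps pyruvate out of the mitochondrial oxidation route, gave log2 intensities of 6.92, 7.05, 7.13 and 6.43 on the KO arrays, against 7.29, 7.34, 7.47 and 7.42 on the WT arrays. Its KO values spread most of the 5 genes, and the low value of KO replicate 4 carried much of the difference. The means were 6.88 ± 0.31 in KO and 7.38 ± 0.08 in WT skin (SD, n = 4 each), so that the KO level was 70.6% of the WT level and the log2 difference −0.50 ± 0.16 (SE). Without KO replicate 4 the log2 difference was −0.35. Pdk1 lay at the edge of the authors' size limit, at −0.503, and the nearest probe set outside it, which has no name here, was at −0.4998.

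Ddit4, the mTORC1 inhibitor, had the largest difference of the set. Its log2 intensities were 8.68, 8.33, 8.56 and 8.84 on the KO arrays, against 9.32, 9.62, 9.63 and 9.17 on the WT arrays, with 0.32 between the nearest values of the 2 groups. The means were 8.60 ± 0.22 in KO and 9.44 ± 0.23 in WT skin (SD, n = 4 each), a log2 difference of −0.83 ± 0.15 (SE), and the KO level was 56.1% of the WT level.

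**Figure D1:**
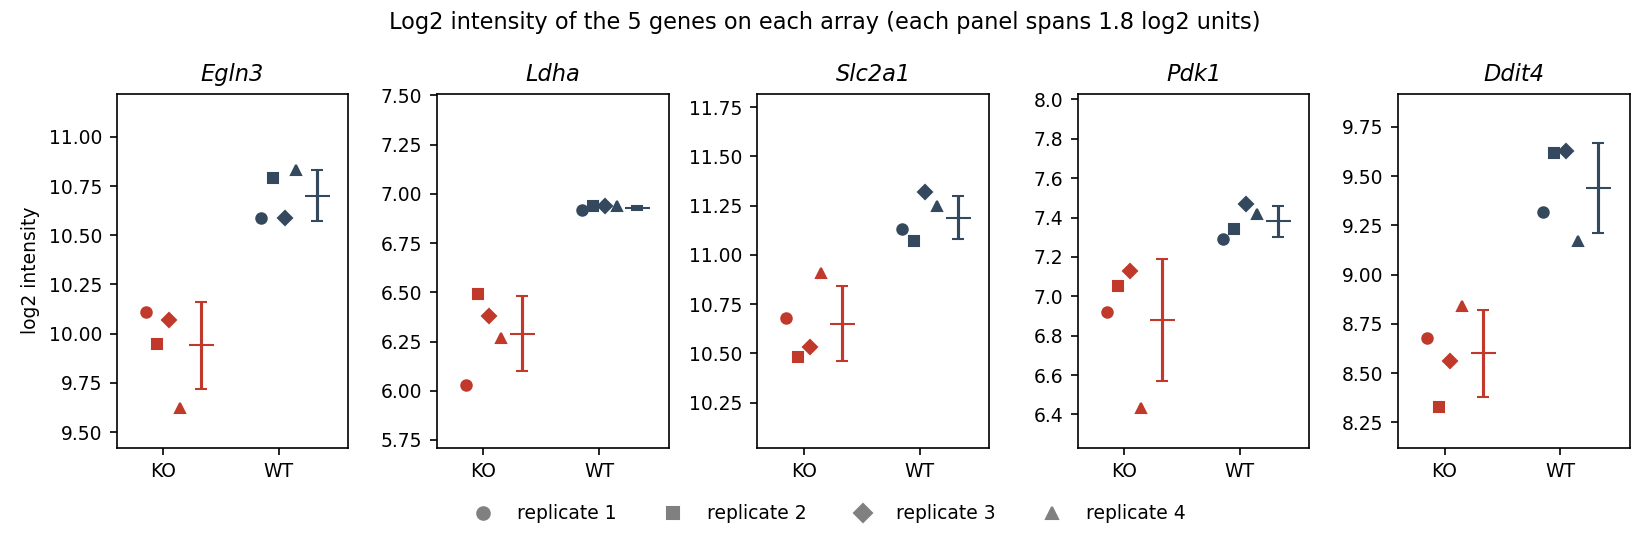
Log2 intensity (vertical axis) of Egln3, Ldha, Slc2a1, Pdk1 and Ddit4 on each KO and WT array, with marker shapes for replicate numbers and bars for the mean and SD of 4 arrays. All KO values lie below all WT values in each panel; the WT values of Ldha nearly coincide, and KO replicate 4 is low for Egln3 and Pdk1 and high for Slc2a1 and Ddit4.

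The KO values lay below the WT values without overlap in each of the 5 genes, a pattern seen in 7.43% of all probe sets. The 5 genes were chosen for being lower on these same arrays, which favours this pattern. By the criteria of the authors' deposited table, 4.4% of probe sets were lower in KO skin, which is the pool these genes came from, and 6.08% were lower at an adjusted p below 0.05 whatever their size. Slc2a1 and Pdk1 were among the smaller differences of that pool. Ranked by size among the 1320 named genes that were lower, Ddit4 came 368th, Egln3 488th, Ldha 793rd, Slc2a1 1144th and Pdk1 1308th. The median log2 change of all probe sets was 0.09, so centring each array on its median made the differences larger: −0.94 for Ddit4, −0.87 for Egln3, −0.75 for Ldha, −0.65 for Slc2a1 and −0.61 for Pdk1. In whole skin, fewer cells of a type and less RNA per cell cannot be told apart.

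**Figure D2:**
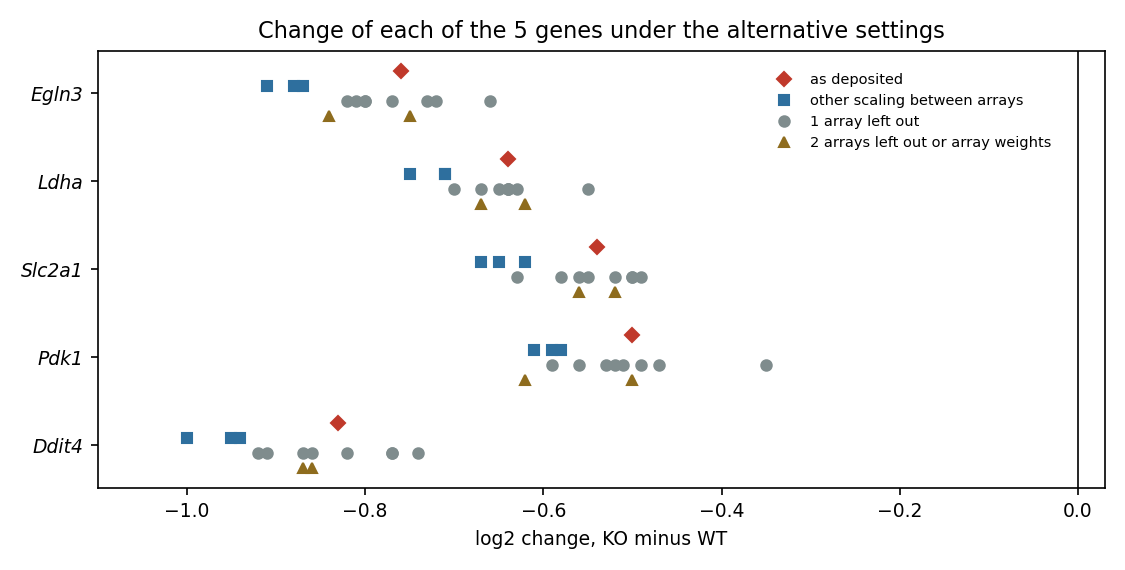
Log2 change, KO minus WT (horizontal axis), of each of the 5 genes as deposited, under other scalings between arrays, with 1 array left out, and with 2 arrays left out or arrays weighted. Every point lies below 0, from −1.0 for Ddit4 after quantile normalization to −0.35 for Pdk1 without KO replicate 4. Leaving out or weighting arrays could not change a sign, since the groups did not overlap.

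The order of the embryos within a genotype was not used to choose the genes, and it differed between them. Among the KO embryos, Slc2a1 and Ddit4 ran in one order, lowest in replicate 2, then 3, 1 and 4. Their difference within an array had an SD of 0.08 over the KO arrays and 0.26 over the WT arrays. Egln3 and Pdk1 did the opposite in KO replicate 4, where Egln3 was 0.32 and Pdk1 0.45 below their KO means on the log2 scale while Slc2a1 was 0.26 and Ddit4 0.24 above theirs. Ldha was lowest in KO replicate 1, at 0.26 below its KO mean. The KO embryo nearest to the WT embryos was thus replicate 4 for 2 of the genes, replicate 1 for Egln3, replicate 2 for Ldha and replicate 3 for Pdk1. With 4 arrays a group these orders are a description only.

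The KO spread was larger than the WT spread for 4 of the 5 genes. The ratio of the SDs, KO over WT, was 17.2 for Ldha, 3.81 for Pdk1, 1.74 for Egln3, 1.69 for Slc2a1 and 0.942 for Ddit4, and its median over all probe sets was 0.967. For Ldha the small WT SD and not a large KO SD made the ratio, since 50.5% of probe sets had a KO SD at or below that of Ldha.

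**Figure D3:**
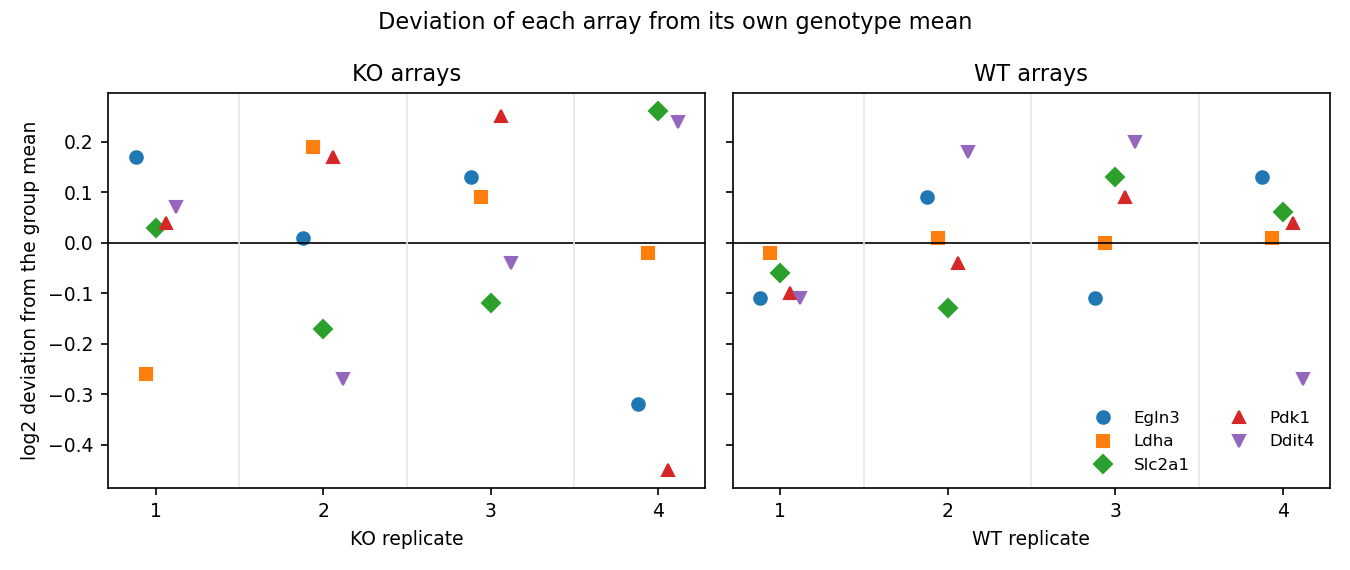
Deviation of each array (horizontal axis, replicate number) from the mean of its own genotype, in log2 units, for the 5 genes, with KO arrays on the left and WT arrays on the right. In KO replicate 4 Slc2a1 and Ddit4 lie above 0 and Egln3 and Pdk1 below it, and the WT points of Ldha lie between −0.02 and 0.01.

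Genes with the most similar profiles were sought among 3127 named genes of the authors' deposited table, by the mean absolute difference of centred log2 values over the 8 arrays. No gene of the set was among the 3 nearest to another. The nearest pair within it was Egln3 and Pdk1, 0.151 apart, and the most distant was Pdk1 and Ddit4, 0.334 apart. Nearest to Egln3 were LOC100861978 (0.0649), the opioid receptor gene Oprk1 (0.0749) and LOC100862324 (0.0841). Nearest to Ldha were Pus7l (0.0533), H60b (0.055) and Cwf19l2 (0.0552). For Slc2a1 they were LOC102637264 (0.0542), Dpp6 (0.0555) and Xlr4a (0.0673), and for Pdk1 they were Pga5 (0.0748), Clca4 (0.0954) and Rccd1 (0.0977). For Ddit4 they were Ighv2-1 (0.0712), Fam19a2 (0.0748) and the DNA polymerase gene Polh (0.0939). All 15 were lower in KO skin, as genes at a small distance from a lower gene must be. Several had mean log2 intensities below the array medians of 4.70 to 4.88. Among them were Oprk1 (3.06 in KO and 3.81 in WT skin), Clca4 (2.36 and 2.88) and LOC102637264 (2.08 and 2.58). Others, such as Polh (7.29 and 8.03), lay above the medians. Whether the low ones were expressed in the skin is not shown.

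Of the other pathway genes that the table names, more were higher than lower in KO skin, as were probe sets in general. Lists of oxygen sensing, hypoxia-induced genes, glycolysis, sugar transport, pyruvate entry, the citrate cycle, mTORC1 control, the ATF4 response and the glucocorticoid response held 163 genes beside them. Of these, 20 rose and 2 fell at a limma adjusted p below 0.05, with Benjamini-Hochberg adjustment across the array, and the other 141 are not named in the authors' table, which means that they missed its criteria, were not measured or carry no symbol there. The 20 are 12.3% of the 163, and 11.8% of all probe sets were higher by the same criteria. The 2 are 1.23% of the 163, but the 5 genes were set aside because they were lower; with them 7 of 168 were lower, or 4.17%, beside 4.4% of all probe sets. Both shares are near the background. The counts per list below are small and are to be read beside the same 11.8% and 4.4% of all probe sets. Groups did not overlap in 16 of the 20 and in 1 of the 2. These genes had already passed the criteria on the same arrays, which favours groups without overlap. The 17.6% of all probe sets with all KO values above all WT values is therefore not a like background. After centring, 13 of the 20 kept a limma adjusted p below 0.05, while Hk3, Eno3, Pdp2, Mthfd2, Ppp1r15a, Dusp1 and Cebpd did not. This and the other alternatives were read by the adjusted p alone, whatever the size.

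**Figure D4:**
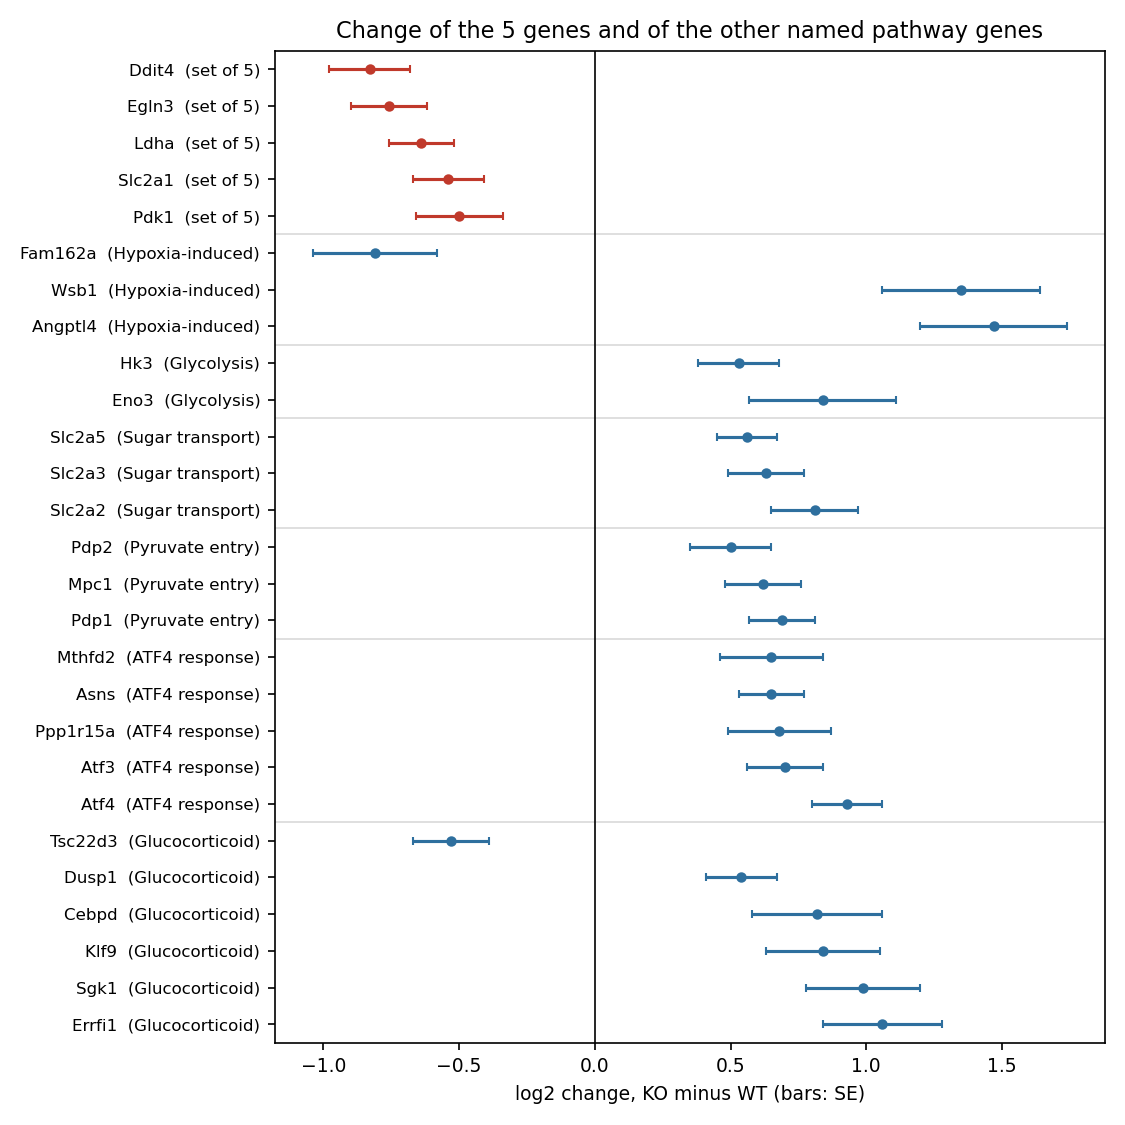
Log2 change, KO minus WT (horizontal axis), with SE bars, of the 5 genes (top) and of the 22 other pathway genes named in the authors' deposited table, grouped by list. The 5 genes, Fam162a and Tsc22d3 lie left of 0 and the other 20 genes right of it, between 0.50 and 1.47.

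Of the 13 genes of oxygen sensing, which included the HIF subunits and the sister hydroxylases Egln1 and Egln2, none other than Egln3 was named. Among the 38 hypoxia-induced genes outside glycolysis, 2 rose and 1 fell beside Egln3 and Ddit4. Angptl4, an inhibitor of lipoprotein lipase that HIF and the PPAR receptors induce, averaged 9.22 ± 0.65 in KO and 7.75 ± 0.17 in WT skin in log2 intensity (SD, n = 4 each), with 0.61 between the nearest values. It was 2.77-fold higher in KO skin (log2 change 1.47 ± 0.27, SE; limma adjusted p = 0.00502) and passed in all 16 alternatives. Wsb1, part of a ubiquitin ligase, averaged 8.97 ± 0.58 in KO and 7.61 ± 0.42 in WT skin (SD, n = 4 each) and rose by 1.35 ± 0.29 (SE; limma adjusted p = 0.00936). Its groups were only 0.03 apart, and it missed the threshold without variance moderation.

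Fam162a, a mitochondrial protein gene known as a HIF target, went the same way as the 5 genes. It read 9.27, 9.97, 10.43 and 9.84 on the KO arrays in log2 intensity, against 10.63, 11.06, 10.68 and 10.37 on the WT arrays. KO replicate 3 lay above WT replicate 4, so the groups overlapped. It fell by 0.81 ± 0.23 on the log2 scale (SE; limma adjusted p = 0.0325), and missed the threshold without any 1 of KO replicates 1, 2 and 4 and WT replicates 1, 2 and 3 (limma adjusted p = 0.0543 to 0.0781).

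In glycolysis, 2 of 20 genes rose, and Ldha was the only other one named. The enolase Eno3, known as the muscle form, averaged 10.21 ± 0.37 in KO and 9.37 ± 0.55 in WT skin, with overlap (log2 change 0.84 ± 0.27, SE; limma adjusted p = 0.0482). The hexokinase Hk3, known from blood cells, averaged 5.08 ± 0.20 in KO and 4.56 ± 0.21 in WT skin (SD, n = 4 each; log2 change 0.53 ± 0.15, SE; limma adjusted p = 0.028). Eno3 missed the threshold in 12 of 16 alternatives and Hk3 in 9. The WT mean of Hk3 lay below the WT array medians of 4.70 to 4.80. Other enzymes between glucose and pyruvate, such as Hk2, Pfkl, Aldoa, Gapdh, Pgk1 and Pkm, were not named.

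Of the 17 genes of glucose and lactate transport, 3 other sugar carriers rose while Slc2a1 was lower. Slc2a3 (GLUT3, a glucose carrier of high affinity) had log2 intensities of 5.91, 5.82, 5.46 and 5.45 on the KO arrays, against 5.0, 4.86, 5.09 and 5.17 on the WT arrays. It rose by 0.63 ± 0.14 (SE; limma adjusted p = 0.0119), with no overlap. Slc2a2 (GLUT2, the carrier of liver and pancreatic islet) rose by 0.81 ± 0.16, with means of 4.77 ± 0.14 in KO and 3.97 ± 0.30 in WT skin (limma adjusted p = 0.0067). Slc2a5 (GLUT5, a fructose carrier) rose by 0.56 ± 0.11, with means of 5.01 ± 0.11 in KO and 4.45 ± 0.05 in WT skin (SD, n = 4 each; limma adjusted p = 0.0057). These 3 calls held in every alternative run, 16 for Slc2a3 and 15 each for Slc2a2 and Slc2a5, which were left out with the low probe sets. The WT means of Slc2a2 and Slc2a5 lay below the WT array medians of 4.70 to 4.80, and the WT values of Slc2a3 lay little above them. No detection values were used, so whether these carriers were expressed in the skin is not shown. Intensities of different probe sets are not comparable, so these changes do not say which carrier was most abundant.

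At the entry of pyruvate into mitochondria, 3 of the 13 genes rose. Pdp1, a phosphatase that undoes the action of the PDK kinases, read 6.81, 6.94, 6.64 and 6.89 on the KO arrays in log2 intensity, against 6.14, 6.33, 5.99 and 6.06 on the WT arrays. The groups were 0.31 apart, and Pdp1 rose by 0.69 ± 0.12 (SE; limma adjusted p = 0.00426), a call kept in all 16 alternatives. Its relative Pdp2 rose by 0.50 ± 0.15 (SE; limma adjusted p = 0.0394) with overlap, and missed the threshold in 12 alternatives. Mpc1, a subunit of the mitochondrial pyruvate carrier, rose by 0.62 ± 0.14 (SE; limma adjusted p = 0.0145), and missed the threshold without both arrays that stood apart. The kinases Pdk2, Pdk3 and Pdk4 were not named, nor was any of the 19 citrate cycle genes.

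Ddit4 stands in 3 further lists, those of the ATF4 response, the glucocorticoid response and mTORC1 control. Most of the other named genes of the ATF4 and glucocorticoid lists rose, as did 3760 of the 5080 named genes of the authors' deposited table. In the ATF4 list, 5 of 21 genes rose. Atf4 itself read 10.08, 9.82, 9.55 and 9.94 on the KO arrays in log2 intensity, against 8.84, 8.95, 8.90 and 8.99 on the WT arrays, 0.56 apart. It rose by 0.93 ± 0.13 (SE; limma adjusted p = 0.00158). The asparagine synthetase gene Asns, an ATF4 target, rose by 0.65 ± 0.12 (SE; limma adjusted p = 0.00465), and the transcription factor gene Atf3 by 0.70 ± 0.14 (SE; limma adjusted p = 0.00863). These 3 calls held in all 16 alternatives. Ppp1r15a (0.68 ± 0.19), which restores translation after stress, and Mthfd2 (0.65 ± 0.19), of mitochondrial folate metabolism, also rose as deposited, but Ppp1r15a missed the threshold in 10 of 16 alternatives and Mthfd2 in 12.

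In the glucocorticoid list, 5 of 16 genes rose and 1 fell beside Ddit4. The EGFR inhibitor gene Errfi1 rose by 1.06 ± 0.22 (SE; limma adjusted p = 0.00785), the kinase gene Sgk1 by 0.99 ± 0.21 (adjusted p = 0.00974) and the transcription factor gene Klf9 by 0.84 ± 0.21 (adjusted p = 0.0183). Errfi1 passed in all 16 alternatives, and Sgk1 and Klf9 in all but the one without variance moderation. Cebpd rose by 0.82 ± 0.24 as deposited; after centring its log2 change was 0.71 and missed the threshold (limma adjusted p = 0.0705), as it did in 11 of 16 alternatives. The phosphatase gene Dusp1 rose by 0.54 ± 0.13, with 0.43 after centring (limma adjusted p = 0.0562), and missed the threshold in 2 alternatives. Tsc22d3, which encodes the glucocorticoid-induced leucine zipper GILZ, fell by 0.53 ± 0.14 on the log2 scale (SE; limma adjusted p = 0.0233). Its log2 intensities were 5.92, 6.00, 6.09 and 5.83 on the KO arrays, against 6.46, 6.83, 6.41 and 6.26 on the WT arrays, with no overlap, and its call was lost without KO replicate 1 or KO replicate 4 (limma adjusted p = 0.0543 and 0.0607), and without both arrays that stood apart (0.0539). Of the 19 genes of mTORC1 control, Ddit4 was the only one named.

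KO replicate 3 was the KO embryo nearest to the WT embryos in 1 of the 5 genes, Pdk1, and in 15 of the 20 that rose. It was also nearest for Fam162a and Tsc22d3, which fell. KO replicate 1 was the farthest from them in 1 of the 5, Ldha, and in 14 of the 20. Over all probe sets, KO replicate 3 also lay toward the WT side on the first principal component. The share of all probe sets with this order is not given, so the counts are not read as particular to these genes. The difference between these counts was not tested.

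Some markers of skin and blood cell types differed between the genotypes. The summed levels below hold only the named markers, which had already passed the authors' criteria in this contrast. Their separation by genotype largely follows from that choice, and unnamed markers are left out. Of the 10 keratinocyte markers 3 were named, Cdsn, Flg and Lor, and all fell, with a summed log2 level of 32.4 to 33.2 in KO and 37.1 to 38.1 in WT skin. Cdsn is the deleted gene and makes most of that gap; for Flg and Lor alone the sum was 24.3 to 24.8 in KO and 25.3 to 26.0 in WT skin. Krt5 and Krt14 were not named, so the labelled tissue was checked with late epidermal markers alone. Of 9 macrophage and dendritic cell markers 5 rose (summed log2 level 32.1 to 34.0 in KO and 28.1 to 29.4 in WT skin). Of 8 neutrophil markers 4 rose (19.8 to 24.1 in KO and 16.0 to 18.3 in WT skin). The WT means of these 4, S100a8 (4.13), S100a9 (4.13), Trem1 (4.52) and Mmp9 (4.26), lay below the WT array medians of 4.70 to 4.80. So did those of Cd207 (3.86) and Itgax (4.0), while those of Cd74, Cd14 and Cd68 lay above. Whether the cells themselves were more numerous was not tested. The markers of muscle (1 of 8 rose), fibroblast (1 of 8), endothelium (1 of 7) and erythroid cells (2 of 10) gave small counts, beside 11.8% of all probe sets higher by the same criteria, and nothing is read from them. The lowest levels were far below the array medians, as for the erythroid marker Hbb-bh1, which averaged 3.32 in KO and 2.63 in WT skin. No detection values were used, so whether the low markers were expressed is not shown. The part of these markers in the levels of the 5 genes was not tested.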

How the data were processed

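Total RNA from the skin of 8 embryos was measured on 8 arrays, 4 KO and 4 WT. The Affymetrix Gene Mouse 2.0 ST array was used, per the labels. The deposited series values are log2 intensities for 33793 probe sets; RMA is named in the submitters' processing notes, and for its version, the scaling between arrays and the genome build no statement is made (not given in the sources used here). The authors' deposited table gives, per the file headers, group means, the ratio of KO over WT (linear and log2), the p-value, and the p-value after Benjamini-Hochberg adjustment. The number of arrays limits the precision; no detection values were used.

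KO minus WT was fitted to the values as deposited with lmFit and eBayes of limma 3.58.1 in R 4.3.3, without covariates. Adjusted p-values are Benjamini-Hochberg values over the 33793 probe sets, read at 0.05. Log2 changes differed from those of the authors' deposited table by at most 4.88e-09. The fit was tested on simulated data. Symbols come from that table, which leaves 299 probe sets unnamed, so other probe sets could not be named; where a gene had several probe sets, the one with the highest mean was taken. The 5 genes and the lists were chosen with earlier results of these data known. Genes named are these 5, the list members past the criteria of the authors' deposited table, relatives of the 5 that this table names, and the 3 nearest profiles to each. Promoter windows and their coordinates come from RefSeq (GRCm38.p6), which was matched by symbol for all 5. Alternatives were median centring, quantile normalization, cyclic loess, no moderation, leaving out low probe sets, the replicate block, array weights, and each array left out. Same-numbered KO and WT arrays did not all deviate together (r = −0.0295, 0.141, 0.23 and 0.00588), so the numbers were not taken as pairs. A listed gene is not reported here and was left out of the lists.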

Additional observations from a re-analysis of the deposited data

Results flagged for a closer look

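Single values far from the rest of their group were sought in 54 groups of 4 arrays, the KO and WT groups of the 5 genes and of the 22 other pathway genes. A value was taken where its distance from its closest neighbour, as a share of the whole range of the group, passed Dixon's critical value, and 2 were found (shares of 0.892 and 0.889); chance gives about 1 in 20 groups, or 2.7 here. Ldha was lowest in WT replicate 1 at a log2 intensity of 6.92, with the others at 6.94, so this gap stands out only because the WT range of Ldha was so small. Wsb1 was highest in WT replicate 4 at 8.24, with the others between 7.37 and 7.47. No KO value of the 5 genes was of this kind, including the low Pdk1 value of KO replicate 4.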

How the results depend on the processing

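The log2 differences of the 5 genes kept their sign and moved by less than 1 SD between replicates in all 16 alternatives. With 1 array left out they ranged from −0.82 to −0.66 for Egln3, −0.70 to −0.55 for Ldha, −0.63 to −0.49 for Slc2a1, −0.59 to −0.35 for Pdk1 and −0.92 to −0.74 for Ddit4. Probe sets higher and lower in KO skin numbered 5138 and 2056 (71.4% higher) as deposited, 2965 and 3075 (49.1%) after centring, 3229 and 3169 (50.5%) after quantile normalization and 3227 and 3165 (50.5%) after cyclic loess. They were 2420 and 879 when low probe sets were left out, with 16897 probe sets tested, and 3702 and 1358 without KO replicate 3 and WT replicate 1, a setting chosen after seeing the data. With 1 array left out the number lower ran from 1335, without WT replicate 3, to 1820. The replicate block gave 4524 and 1726, and 18 and 2 of the other pathway genes. Of those genes, 20 rose and 2 fell as deposited. By the adjusted p alone, 13 rose after centring and after cyclic loess, and 11 without variance moderation. Only the 22 genes named as deposited could be counted, so these counts could not gain genes that passed only in an alternative. Of the 2 that fell, Fam162a and Tsc22d3, 0 passed without moderation, without KO replicate 1 and without KO replicate 4, both keeping an unadjusted p under 0.05 in limma there. With 1 array left out, 0 to 2 passed, with 1 passing without KO replicate 2 and without WT replicates 1, 2 or 3, and 1 without both arrays that stood apart. Of the 22 genes, 9 passed in every alternative that held them, 13 missed in at least 1, and 0 changed sign. The causes were not tested. No gene of the 5 had another probe set in the authors' deposited table. Probe sets outside it carry no symbol here, so whether the array holds others for these genes is not known.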
